A study of Sus scrofa with 6 samples.

Results

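Pig embryos made by nuclear transfer were compared with the cultured cells whose nuclei went into them. All 5 embryo arrays were set against the 1 donor cell array, so the comparison took in 6 of the 6 arrays of the series, and it was made over 14399 of 23999 non-control probe sets, those in the upper 60% by mean signal. The wider series asks what DJ-1, the PARK7 protein, which senses oxidation, does in the first divisions of such embryos. The embryo groups were anti-DJ1 embryos, injected with an antibody against DJ-1 (2 arrays), IgG embryos, injected with control immunoglobulin (2 arrays), and non-injected embryos (1 array). Every embryo was a somatic nuclear transfer embryo built in an oocyte recovered at a slaughterhouse, cultured in PZM-3 medium and lysed 28 h later, near the 2-cell stage. Each array held RNA of 23 to 26 pooled embryos. The donor cells were fibroblasts cultured in serum-containing medium, established from an adult Meishan pig, and were not injected. Trial 1 held the donor cells and 1 array of each embryo group, and trial 2 a further anti-DJ1 and a further IgG array. The breed of the oocyte donors is not given in the labels.

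In nuclear transfer the chromosomes of an oocyte are replaced by a somatic nucleus, and the oocyte cytoplasm is left to turn that nucleus into an embryonic one. A growing oocyte fills its cytoplasm with messenger RNA and protein, then falls silent, and the first cleavages run on that store until the embryonic genome is switched on. Fibroblasts are mesenchymal cells that secrete and remodel extracellular matrix, hold a vimentin and actin cytoskeleton, and grow through the G1 phase under serum. A transcript measured in a cleaving transfer embryo can come from the oocyte store, from the new nucleus or from RNA carried over with the donor cell, and these sources cannot be told apart by an array signal.

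Values are MAS5 signals, the array maker's linear summary of the probes of 1 probe set, and every array had a trimmed mean close to 500.1. They are therefore relative to each sample's own RNA, and 50 ng of total RNA was labelled for each. In a pool of embryos or cells, fewer cells that hold a transcript and less of it per cell cannot be told apart. Between 55.8% and 71.0% of probe sets lay above an array's highest Tag control, a set of artificial probes with no target, whose highest signals were 21.4 to 47.0. The median signal was 59.2 to 69.5 on embryo arrays and 90.3 on the donor array. Embryo arrays correlated with each other at r = 0.937 to 0.981 and with the donor array at 0.256 to 0.329, across the tested probe sets, which share arrays and are not independent. The donor array has no replicate, so the test takes it to vary as the embryo arrays do.

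The labels were checked against the markers of both kinds of sample. All 9 oocyte markers on the array lay above the Tag controls on all 5 embryo arrays, and their summed signal was 78358 to 134102 in embryos and 220 in donor cells. KPNA7, an importin alpha of the oocyte and early embryo, had signals of 37590.2 and 16959.7 in the anti-DJ1 embryos of trials 1 and 2, 35933 and 20693 in the IgG embryos and 53619 in the non-injected embryos, against 5.02 in donor cells, which is below that array's Tag controls. Embryo levels were at least 883-fold higher (limma, adjusted p = 1.11e-06), and the lowest embryo array was far above the donor array. Here and below, a fold given as at least sets the mean of the bright side against the Tag controls of the dim side. Single arrays can lie below it. The log2 difference, 11.62 ± 0.55, is given with its standard error here and below. Where 5 embryo values follow each other, they are in that order. H1FOO, the linker histone of oocytes, gave 20761, 14701, 16119.5, 16707 and 23669 on the embryo arrays and 1.74 in donor cells, at least 528-fold higher in embryos (adjusted p = 1.42e-07). ZP4, a glycoprotein of the zona pellucida, the coat around the egg, gave 8546, 11534, 7361, 12566 and 6671 on the embryo arrays and 5.81 in donor cells, at least 264-fold higher (adjusted p = 3.68e-07). None of the 3 was above background in donor cells.

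On the donor side, the 9 fibroblast markers on the array summed to 93959 in donor cells and to 2881 to 3651 in embryos. VIM, the intermediate filament protein vimentin, had signals of 402 and 376 in the anti-DJ1 embryos of trials 1 and 2, 422 and 382 in the IgG embryos and 348 in the non-injected embryos, against 31965 in donor cells, a log2 difference of -6.36 ± 0.24 (limma, adjusted p = 3.89e-07). FN1, the matrix glycoprotein fibronectin, had 614, 520.4, 536, 603 and 572 on the embryo arrays and 24455 in donor cells, with a difference of -5.42 ± 0.23 (adjusted p = 7.29e-07). SPARC, a matrix-binding protein, was at 859 to 1922 in embryos and 29989.5 in donor cells, and THY1, a surface glycoprotein of fibroblasts, at 68.4 to 108 in embryos and 6443 in donor cells. The embryo and donor values of these 4 genes did not overlap. Other defining markers went against the label. LUM (lumican) was at 1.71 in donor cells and DCN (decorin) at 5.58, both under the Tag controls, and PDGFRB was at 57.0 against 113 to 194 in embryos. COL1A2 and COL3A1, fibrillar collagens, were at 459 and 584 in donor cells and did not pass the test (0.0890 and 0.124), although a second, dimmer probe set of COL1A2 was called higher in donor cells (-4.26 ± 0.79, adjusted p = 0.00148). Keratins and EPCAM, which mark epithelial cells, were present in the donor cells: KRT8 at 9907, KRT19 at 3598, KRT18 at 2103 and EPCAM at 3128. The cells are called donor cells below, and what part cells of another type have in the differences was not tested.

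**Figure D1:**
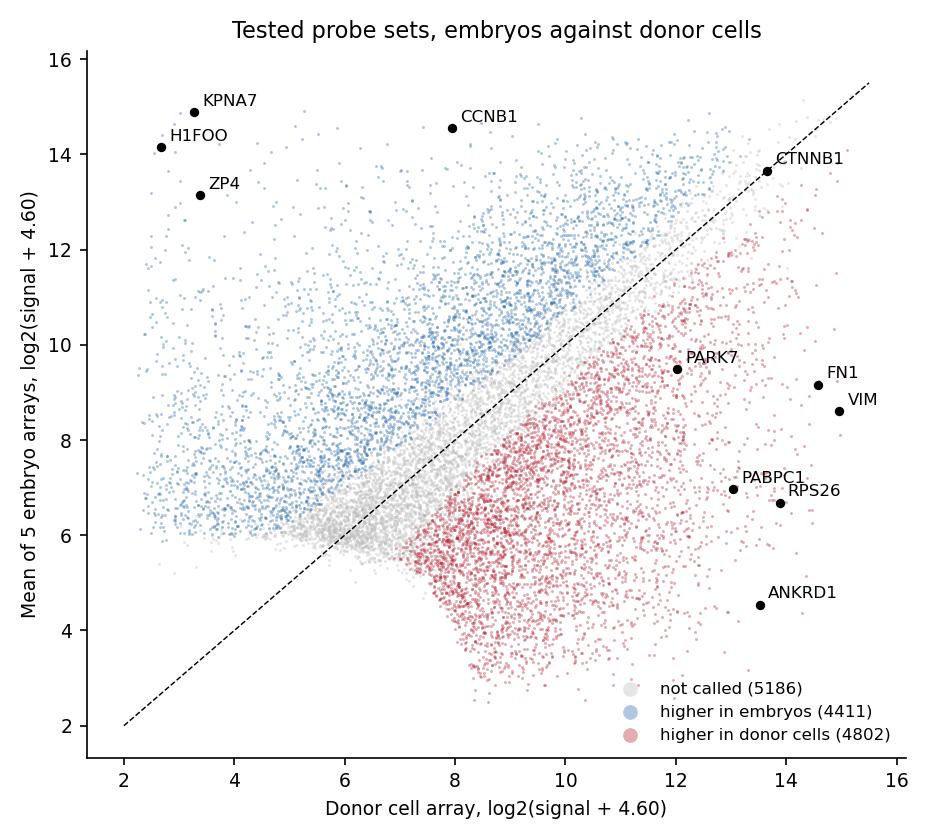
Each point is 1 of the 14399 tested probe sets, with the log2 signal of the donor cell array on the horizontal axis and the mean log2 signal of the 5 embryo arrays on the vertical axis (pseudocount 4.60 added to each signal). Blue marks the 4411 probe sets called higher in embryos, red the 4802 called higher in donor cells and grey those not called; the dashed line is equality, and the oocyte markers sit at the upper left and VIM and FN1 at the right.

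The 2 kinds of sample differed across most of the array. At an adjusted p under 0.05 in limma, 4411 probe sets (30.6%) were higher in embryos and 4802 (33.3%) in donor cells, 64.0% in all. The median difference over all tested probe sets was -0.07 on the log2 scale. A difference of at least 8-fold was called for 1551 probe sets (10.8%) toward embryos and 2296 (15.9%) toward donor cells. The donor signal lay below all 5 embryo signals for 39.7% of probe sets, above all 5 for 43.1% and inside the embryo range for 17.2%. Typical embryo-to-donor distances were wide beside the spread of embryos: the median absolute difference was 1.67 and the median SD over the 5 embryo arrays 0.38, both on the log2 scale. Of the 9213 probe sets called, 9213 had the same sign against the embryos of trial 1 and of trial 2 taken alone. The calls came from these same arrays and both trials share the donor array, so this is no independent check. The balance of calls depended on the scaling, since 57.0% of calls were toward embryos after quantile normalization and 60.1% with a common 75th percentile, against 47.9% with the signals as deposited. Those scalings moved the median of all probe sets from -0.07 to 0.35 and 0.49.

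The probe sets at least 8-fold higher in embryos had a median signal of 1045 to 1384 on the embryo arrays and 37.9 in donor cells, where 51.9% of them were still above the Tag controls. Those at least 8-fold higher in donor cells had a median of 1153 there and 41.9 to 45.6 on the embryo arrays, near the Tag controls, with 46.8% to 73.2% of them above.

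For gene lists, each gene was represented by its brightest probe set. Over the 5233 named genes tested this way, 29.4% were called higher in embryos (9.4% at least 8-fold) and 35.6% higher in donor cells (16.0% at least 8-fold). The donor signal lay below all embryo signals for 38.2% of genes and above all of them for 45.2%. These shares are the background for the counts that follow. The median over these genes was -0.18, and list medians below are to be read against it.

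**Figure D2:**
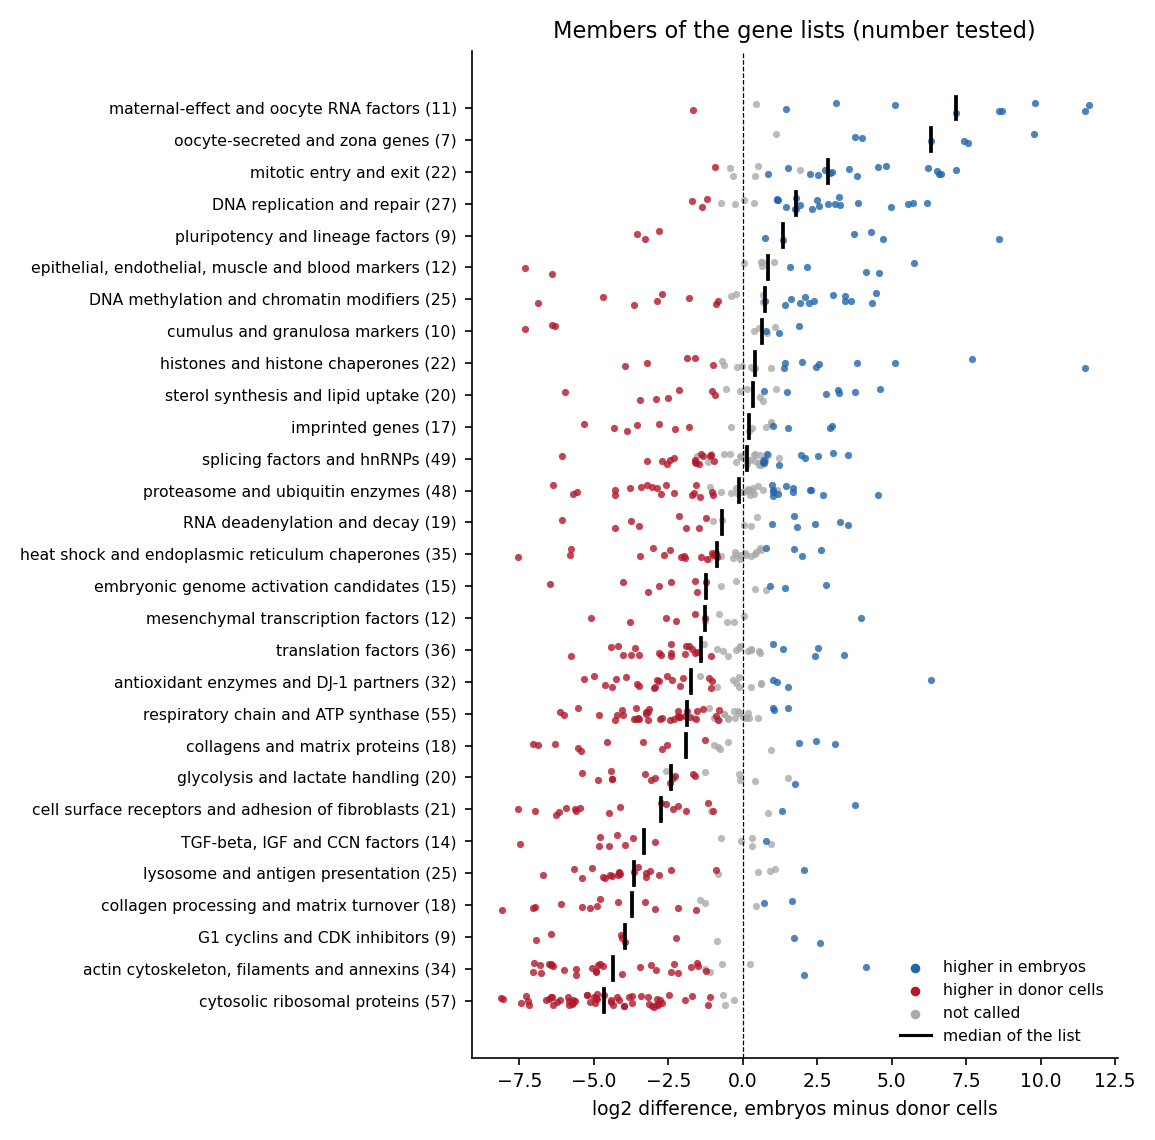
Points are the tested members of 29 gene lists, placed by their log2 difference (embryos minus donor cells), with the number of members in brackets and the black bar at the median. Blue and red points passed the test toward embryos and donor cells; oocyte lists have medians of 6.33 and 7.15, and cytosolic ribosomal proteins one of -4.65.

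Genes listed as secreted by an oocyte or built into its coat were mostly far higher in embryos. Of 7 tested, 6 were higher in embryos and 0 higher in donor cells, with a median log2 difference of 6.33. BMP15, an oocyte growth factor of the TGF-beta family, had signals of 2475 and 7586 in the anti-DJ1 embryos of trials 1 and 2, 3007 and 7712 in the IgG embryos and 1880.3 in the non-injected embryos, against 17.4 in donor cells, and was at least 112-fold higher in embryos (adjusted p = 4.89e-05). Its partner GDF9 had 4098, 5422, 3760.3, 6509.9 and 2983 on the embryo arrays and 50.1 in donor cells, a difference of 6.33 ± 0.40 (adjusted p = 4.17e-06). The zona gene ZP2 was at 1730.0 to 5383 in embryos and 9.67 in donor cells (at least 78.8-fold higher) and ZP3 at 1008 to 1714 in embryos and 73.8 in donor cells (3.99 ± 0.33). FST, which encodes the activin-binding protein follistatin, was at least 10.9-fold higher. KITLG, the kit ligand, was entered in the same list but is not taken here as an oocyte gene. It was at 45.2 to 86.1 in embryos and 27.3 in donor cells and did not pass (adjusted p = 0.0830).

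Proteins that an oocyte lays down for the first cleavages showed the same direction. Of 11 maternal-effect and oocyte RNA factors tested, 9 were higher in embryos, 1 was higher in donor cells and the median was 7.15. PADI6, an enzyme of the subcortical complex of the egg, gave 3817, 7585, 3377, 7409.8 and 4276 on the embryo arrays and 1.001 in donor cells, at least 146-fold higher in embryos (adjusted p = 1.11e-06). DPPA5, an RNA-binding protein of early embryos, was at 2140.3 to 6294 in embryos and 4.50 in donor cells, and NPM2, the histone-binding nucleoplasmin of eggs, at 198 to 380.3 in embryos and 3.31 in donor cells. PTTG1, which encodes securin, the inhibitor of separase, had signals of 29009.5 and 15938 in the anti-DJ1 embryos of trials 1 and 2, 26182 and 18250.2 in the IgG embryos and 39789 in the non-injected embryos, against 167 in donor cells (7.15 ± 0.45, adjusted p = 4.36e-06). RNF114, a ubiquitin ligase of the maternal store, differed by 3.12 ± 0.32 and UCHL1, a ubiquitin hydrolase abundant in eggs, by 1.46 ± 0.34. The member on the donor side was FBXW7, a ubiquitin ligase subunit (154 to 403 in embryos and 824 in donor cells, -1.65 ± 0.55), a call lost after quantile normalization (0.0899) and with a common 75th percentile (0.145), and HSF1, the heat shock transcription factor, was not called (adjusted p = 0.531).

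Several families have 1 member tied to the oocyte and 1 used by somatic cells, and these were set side by side. In the kinases that inhibit CDK1, the oocyte form WEE2 had signals of 28449 and 14745 in the anti-DJ1 embryos of trials 1 and 2, 25190.2 and 18459.9 in the IgG embryos and 42293 in the non-injected embryos, against 53.4 in donor cells, a difference of 8.70 ± 0.49 (adjusted p = 2.44e-06). The somatic form WEE1 went the other way, with 32.7, 32.6, 72.9, 39.3 and 47.9 on the embryo arrays and 1482 in donor cells and a difference of -4.96 ± 0.51 (adjusted p = 5.88e-05). For importin alpha, both KPNA7 and KPNA2 were higher in embryos, KPNA2 at 18263 to 48051 in embryos and 6205 in donor cells (2.27 ± 0.48). Of the nucleoplasmins, NPM2 was at least 7.80-fold higher while NPM1 was at 13756 to 26004 in embryos and 14851 in donor cells and was not called (0.41 ± 0.36, adjusted p = 0.352), although it passed with the trial as a replicate block (0.66, adjusted p = 0.00605). UCHL3, the relative of UCHL1, was not called either (0.50 ± 0.33), but passed with a common 75th percentile (1.03, adjusted p = 0.0112) and against trial 2 embryos alone (0.85, adjusted p = 0.00208). The donor cells were in trial 1 only, so the block difference of NPM1 is that against trial 1 embryos. Against trial 2 embryos it was 0.02. DNMT1 and DNMT3A, entered as an oocyte and a somatic type, were both higher in embryos (4.49 ± 0.52 and 3.64 ± 0.33). The differences between the 2 members of a family were not tested.

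Of other families only 1 member could be matched to a probe set. CCND2, entered as the oocyte type of the D cyclins, was at least 39.7-fold higher in donor cells. CNOT6L, entered as the oocyte type of the CCR4 deadenylases, was higher in embryos (3.54 ± 0.27). BTG1 and AURKB, also matched alone, are given with their lists below. PABPC1, the poly(A)-binding protein of somatic cells, had signals of 79.2 and 127 in the anti-DJ1 embryos of trials 1 and 2, 113 and 209 in the IgG embryos and 104 in the non-injected embryos, against 8387 in donor cells, a difference of -6.07 ± 0.47 (adjusted p = 1.28e-05), so that the highest embryo value was far below the donor value. EIF4E, the general cap-binding protein, was higher in embryos (1.34 ± 0.37), as was CCNB1. The survival factor BCL2L1 was at 1127 to 1812 in embryos and 65.4 in donor cells (4.38 ± 0.30), and LSM14A, a P-body protein, was higher in donor cells (-1.61 ± 0.22). YBX1, a Y-box RNA-binding protein, was called higher in embryos (0.80 ± 0.29, adjusted p = 0.0378). That call was lost without anti-DJ1 replicate 1 (0.0737) or without IgG replicate 1 (0.0626).

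Genes that shorten and remove messenger RNA stood on both sides. Of 19 genes tested, 6 were higher in embryos, 8 were higher in donor cells and the median was -0.71, a sign that turned to 0.17 when only the upper 40% of probe sets were kept. On the embryo side were the deadenylase subunits CNOT6L, a catalytic subunit of CCR4-NOT (5549.6 to 8213 in embryos and 613 in donor cells, 3.54 ± 0.27), CNOT7, its other nuclease (3.26 ± 0.34, with 0.68, not called, and 1.30 on its other probe sets), and PAN2 and PAN3, the second deadenylase of the cell (1.73 ± 0.36 and 1.82 ± 0.34). PAIP1, which binds poly(A)-binding protein, and DCP1A, a decapping factor, were also higher in embryos (2.44 ± 0.25 and 0.998 ± 0.28), DCP1A with 0.19, not called, and 3.25 on its other probe sets. On the donor side stood PABPC1, the anti-proliferative BTG1 (341 to 661 in embryos and 6506 in donor cells, -3.74 ± 0.39), the CCR4-NOT subunit CNOT2 (-3.49 ± 0.56) and the uridylyltransferase ZCCHC11 (-4.30 ± 0.91).

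Genes of entry into and exit from mitosis were higher in embryos. Of 22 tested, 16 were higher in embryos, 10 of them at least 8-fold, 1 was higher in donor cells and the median was 2.85. CCNB1, the cyclin that activates CDK1, had signals of 27742 and 17780.3 in the anti-DJ1 embryos of trials 1 and 2, 25920.1 and 19646 in the IgG embryos and 31586 in the non-injected embryos, against 242 in donor cells, a difference of 6.60 ± 0.34 (adjusted p = 1.50e-06). AURKA, a kinase of the spindle poles, had 9544, 10875, 9343, 12594 and 10047 on the embryo arrays and 135 in donor cells (6.22 ± 0.24, adjusted p = 4.58e-07), and no embryo array came near the donor value. CDC20, the activator of the anaphase-promoting complex, was at 571 to 1769 in embryos and 4.63 in donor cells (at least 27.2-fold higher), and its ubiquitin-conjugating enzyme UBE2C at 1663 to 4139.6 in embryos and 106 in donor cells (4.53 ± 0.53). PLK1, a mitotic kinase, was at least 33.7-fold higher, and CCNB2 differed by 4.82 ± 0.23. AURKB, the Aurora kinase of the chromosomal passenger complex, was higher in trial 2 (463, 1857, 390.2, 1912 and 333 on the embryo arrays and 189.6 in donor cells) and was not called (1.93 ± 0.97, adjusted p = 0.113). It passed after both rescalings and with the trial as a replicate block (1.03), where the difference is that against trial 1 embryos alone. ANAPC5, an anaphase-promoting complex subunit, was the member called on the donor side (-0.92 ± 0.34, adjusted p = 0.0412), and the call was lost without anti-DJ1 replicate 1 (0.0636), IgG replicate 1 (0.0701) or the non-injected array (0.0501).

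Genes of the G1 phase stood mostly on the donor side. Of 9 G1 cyclins, CDK inhibitors and growth-response genes tested, 6 were higher in donor cells and 2 in embryos, with a median of -3.95. CCND2, a D-type cyclin, had signals of 3.42 and 21.9 in the anti-DJ1 embryos of trials 1 and 2, 1.46 and 21.2 in the IgG embryos and 1.67 in the non-injected embryos, against 1429 in donor cells, all embryo values within the Tag controls, and was at least 39.7-fold higher in donor cells (adjusted p = 0.000458). MYC, the growth-promoting transcription factor, gave 20.4, 22.9, 4.89, 19.5 and 52.5 on the embryo arrays and 2138 in donor cells (-6.45 ± 0.84, adjusted p = 0.000216). CDKN1B, which encodes the CDK inhibitor p27, was at 35.0 to 121 in embryos and 1164 in donor cells (-3.95 ± 0.62). GADD45A and GADD45B, stress-induced regulators of growth arrest, differed by -4.09 ± 0.46 and -4.07 ± 0.60. CDK2, the kinase of S-phase entry, was higher in embryos (266 to 588 in embryos and 112 in donor cells, 1.72 ± 0.46). So was CDKN2C, a CDK4 and CDK6 inhibitor (2.59 ± 0.98, adjusted p = 0.0452), a call lost without anti-DJ1 replicate 1 (0.0663) or IgG replicate 1 (0.0587). CDKN2C was dim, at 16.3 to 140 in embryos, above the Tag controls on 4 embryo arrays, and at 6.40 in donor cells, below them.

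**Figure D3:**
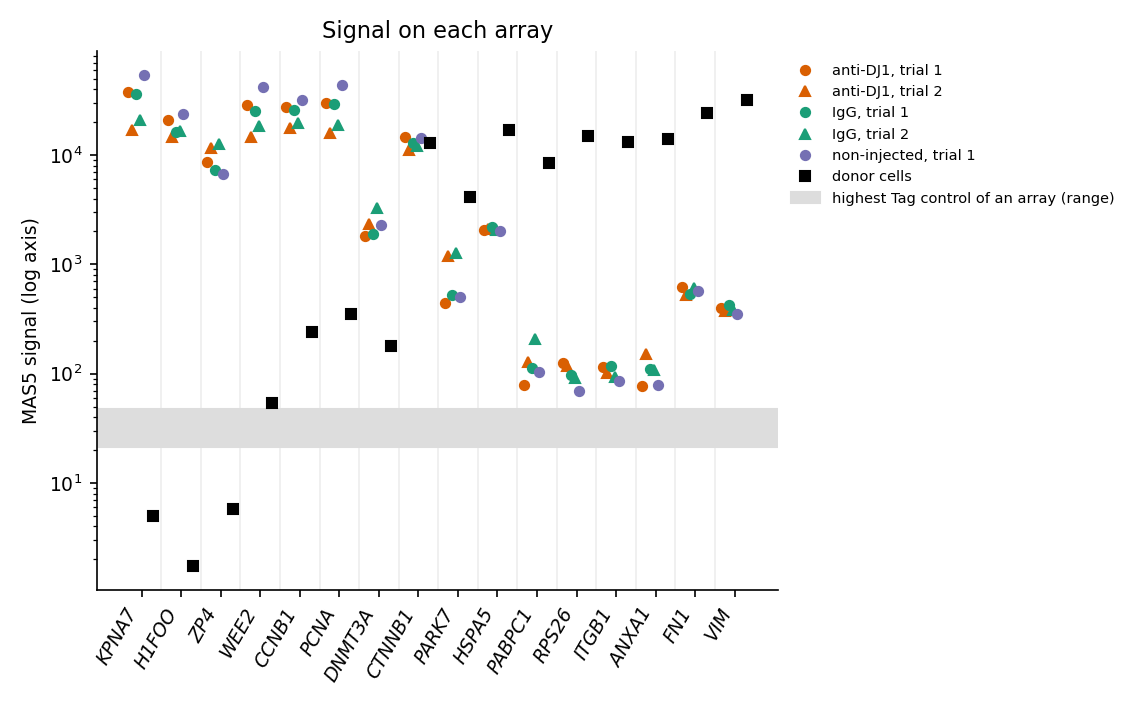
Signals on a log axis for 16 genes on each of the 6 arrays, with circles for embryos of trial 1, triangles for embryos of trial 2 and black squares for donor cells. The grey band spans the highest Tag control signals of the arrays, 21.4 to 47.0; the first 7 genes lie higher on every embryo array, CTNNB1 lies at the donor level and the 8 at the right lie lower on every embryo array.

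Replication and repair genes were mostly higher in embryos. Of 27 tested, 20 were higher in embryos and 3 in donor cells, with a median of 1.79. PCNA, the sliding clamp of the replication fork, had signals of 29895 and 15876 in the anti-DJ1 embryos of trials 1 and 2, 29066 and 18666 in the IgG embryos and 43696 in the non-injected embryos, against 349 in donor cells, a difference of 6.18 ± 0.49 (adjusted p = 1.41e-05). CHEK1, the checkpoint kinase of replication stress, gave 9299, 8025, 7273, 4962 and 8779.7 on the embryo arrays and 156 in donor cells (5.55 ± 0.34, adjusted p = 3.81e-06). BRCA1, a repair factor, was at least 18.0-fold higher, and GMNN (geminin), which blocks repeated licensing of origins, was at 5531 to 6669 in embryos and 403 in donor cells (3.88 ± 0.22). The helicase subunits MCM2, MCM3 and MCM4 differed by 3.22 ± 0.33, 2.85 ± 0.32 and 2.57 ± 0.64, but the 2 other probe sets of MCM2 gave 0.81 and 0.25 and were not called. MCM5 was at least 17.5-fold higher on its brightest probe set, but a second one gave 0.19. The replication protein A subunits RPA1, RPA2 and RPA3 lay close together at 1.17 ± 0.22, 1.77 ± 0.23 and 1.94 ± 0.25. The Ku subunits, which bind broken DNA ends, split: XRCC6 was higher in embryos (2.49 ± 0.51) and XRCC5 in donor cells (-1.69 ± 0.33). ORC4, an origin-binding subunit (-1.37 ± 0.40), and RAD50, of the break-processing complex (-1.20 ± 0.35), were the others on the donor side, and neither passed with a common 75th percentile (0.0952 and 0.0692). A second probe set of ORC4 gave 0.07.

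Pluripotency and lineage factors were divided. Of 9 tested, 6 were higher in embryos and 3 in donor cells, with a median of 1.36. POU5F1, which encodes the pluripotency factor OCT4, had signals of 658 and 1962 in the anti-DJ1 embryos of trials 1 and 2, 741 and 1922 in the IgG embryos and 768 in the non-injected embryos, against 36.5 in donor cells, a difference of 4.71 ± 0.64 (adjusted p = 0.000272). GATA4, a factor of the primitive endoderm and heart, was at 403 to 1368 in embryos and 32.1 in donor cells, below the Tag controls (4.32 ± 0.62). TFAP2C, a factor of germ cells and trophoblast, was at 332 to 436 in embryos and 24.0 in donor cells (at least 11.04-fold higher). TEAD4 and GATA3, which act in the trophectoderm lineage, were higher in donor cells, TEAD4 at 6.29 to 101 in embryos and 482 in donor cells (-3.56 ± 1.18) and GATA3 at 31.9 to 51.7 in embryos and 471 in donor cells (-3.30 ± 0.46). ELF3, an epithelial factor, was the third on that side (-2.82 ± 0.85), and its call was lost after quantile normalization (0.0506).

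DNA methyltransferases stood on the embryo side. DNMT1, the maintenance enzyme, had signals of 31700.3 and 15982 in the anti-DJ1 embryos of trials 1 and 2, 31499 and 21199 in the IgG embryos and 49658 in the non-injected embryos, against 1238 in donor cells, a difference of 4.49 ± 0.52 (adjusted p = 0.000108). Its 3 other probe sets gave 10.49, 7.45 and 8.44, so the size of the difference depends on the probe set while the direction does not. DNMT3A, a de novo enzyme, was at 1834, 2317, 1900.3, 3296 and 2306 on the embryo arrays and 178 in donor cells (3.64 ± 0.33, adjusted p = 3.00e-05). Over all 25 chromatin modifiers tested, 13 were higher in embryos, 8 were higher in donor cells and the median was 0.76. EED, a core subunit of the Polycomb repressive complex that methylates histone H3, had signals of 9.63 and 21.5 in the anti-DJ1 embryos of trials 1 and 2, 9.15 and 16.2 in the IgG embryos and 11.4 in the non-injected embryos, against 2083 in donor cells, and was at least 57.8-fold higher in donor cells (adjusted p = 2.49e-05). RING1, a Polycomb ubiquitin ligase, CBX3, a heterochromatin protein, and SMARCA4, the remodelling ATPase BRG1, were also higher in donor cells (-2.88 ± 0.48, -2.71 ± 0.35 and -1.80 ± 0.32). MBD2, a reader of methylated DNA, was called higher in embryos on its brightest probe set (4.34 ± 0.38), while its other probe sets gave -3.72 and 1.49.

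Histones and their chaperones also split, with 9 of 22 tested higher in embryos, 5 higher in donor cells and a median of 0.40. ASF1B, a chaperone of newly made H3 and H4, had 1580.1, 2122, 1409.6, 2190.1 and 1472 on the embryo arrays and 3.65 in donor cells and was at least 50.3-fold higher in embryos (adjusted p = 6.50e-07), and CHAF1A, the large subunit of chromatin assembly factor 1, was at least 4.73-fold higher. NAP1L1, a chaperone of H2A and H2B, was at 452 to 599.7 in embryos and 8537 in donor cells (-3.94 ± 0.26), with -3.76, -1.85 and -3.87 on its other probe sets. The variants H2AFY (macroH2A) and H3F3A (H3.3) were higher in donor cells (-1.59 ± 0.41 and -1.001 ± 0.23), as were HMGN3, a nucleosome-binding protein, and HIST1H2BD (-1.87 ± 0.30 and -3.20 ± 0.67). The call for H3F3A did not pass with a common 75th percentile (0.227), and histone genes have near-identical copies that an array can confuse.

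Imprinted genes, which are expressed from 1 parental allele, showed no shared direction. Of 17 tested, 4 were higher in embryos and 7 in donor cells, with a median of 0.21. The median turned to -0.38 with the trial as a replicate block and to -0.74 when only the upper 40% of probe sets were kept. The block sets trial 1 embryos against the donor cells, and against trial 2 embryos the median was 0.41. PEG10, a retrotransposon-derived gene of the placenta, had signals of 1129, 920.4, 1536, 1004 and 1098 on the embryo arrays and 13234 in donor cells (-3.56 ± 0.30, adjusted p = 1.98e-05). NAP1L5 and IMPACT were higher in donor cells (-5.34 ± 0.59 and -4.31 ± 0.69), as was PHLDA2, a brake on placental growth (-2.80 ± 0.44). PLAGL1, a zinc finger factor, had 17219, 8659.6, 14830.3, 8805 and 18676 on the embryo arrays and 1700.4 in donor cells and was higher in embryos (2.93 ± 0.45, adjusted p = 0.000575), as was INPP5F, a phosphoinositide phosphatase (2.99 ± 0.22).

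Genes of the fibroblast surroundings were lower in embryos in most cases where a call was made. Of 27 collagens and matrix proteins on the array, 18 were bright enough to test, 10 were higher in donor cells, 3 were higher in embryos and the median was -1.91. Counting all 27 without that filter, 18 had a negative difference. THBS1, the adhesive glycoprotein thrombospondin, had signals of 117 and 114 in the anti-DJ1 embryos of trials 1 and 2, 159.7 and 89.9 in the IgG embryos and 83.5 in the non-injected embryos, against 13492 in donor cells, a difference of -6.88 ± 0.39 (adjusted p = 2.46e-06). COL4A2, a basement membrane collagen, gave 58.6, 14.7, 52.9, 38.6 and 37.2 on the embryo arrays and 5450.3 in donor cells (-7.03 ± 0.63, adjusted p = 2.81e-05). TNC (tenascin) was at least 23.9-fold higher in donor cells and COL5A1, a minor fibrillar collagen, was at 10.3 to 60.3 in embryos and 2116 in donor cells. DCN, VCAN (versican) and MFAP2, a microfibril protein, were the members higher in embryos. VCAN differed by 1.88 ± 0.50. DCN and MFAP2 lay within the Tag controls in donor cells and were at least 2.42-fold and 3.76-fold higher in embryos. The untested members included LUM, BGN, POSTN, MGP and EFEMP2, the last at 282 in donor cells and 1.66 to 7.68 in embryos.

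Enzymes that process collagen and turn over matrix stood mostly on the donor side. Of 18 tested, 13 were higher in donor cells and 2 in embryos, with a median of -3.73. The plasminogen activators PLAT and PLAU had donor signals of 5575 and 9738 against embryo ranges of 2.26 to 55.5 and 32.5 to 96.2 (-8.08 ± 1.08 and -7.06 ± 0.54). ADAMTS1, a secreted protease that cleaves proteoglycans, gave 172, 159, 139.9, 149 and 277 on the embryo arrays and 22312 in donor cells (-6.97 ± 0.39, adjusted p = 2.30e-06). TIMP1, an inhibitor of matrix proteases, was at 6.16 to 71.5 in embryos and 1497 in donor cells, and BMP1, the procollagen proteinase, was at least 18.8-fold higher in donor cells. On the embryo side were SERPINF1 (1.66 ± 0.55), which did not pass against trial 1 alone (0.0662), and the protease CTSK (0.70 ± 0.25, adjusted p = 0.0381). The CTSK call was lost without anti-DJ1 replicate 1 (0.0751), anti-DJ1 replicate 2 (0.0640) or the non-injected array (0.0575).

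Genes of the cytoskeleton and the cell surface stood on the donor side. Of 34 genes of actin, filaments and annexins tested, 28 were higher in donor cells, 20 of them at least 8-fold, 2 were higher in embryos and the median was -4.36. ANXA1, a calcium-dependent membrane-binding annexin, had signals of 76.9 and 152 in the anti-DJ1 embryos of trials 1 and 2, 111 and 108 in the IgG embryos and 78.2 in the non-injected embryos, against 14132 in donor cells, a difference of -7.05 ± 0.41 (adjusted p = 2.90e-06). TPM3, a tropomyosin that lines actin filaments, had 77.6, 85.7, 65.1, 36.2 and 40.9 on the embryo arrays and 6919 in donor cells (-6.79 ± 0.51, adjusted p = 1.09e-05), and TMSB10, which binds actin monomers, was at 82.3 to 246 in embryos and 13408 in donor cells. MYL6, a myosin light chain, was at 33.4 to 139.5 in embryos and 6329.6 in donor cells. Beta-actin, ACTB, was at 3124 to 9295 in embryos and 25746 in donor cells (-2.30 ± 0.54), but its second probe set was called the other way (1.37 ± 0.30, adjusted p = 0.00348). DES, the muscle filament protein desmin (343 to 614 in embryos and 22.5 in donor cells), and CNN2, a calponin (292 to 849 in embryos and 111 in donor cells), were the members higher in embryos.

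Among 21 receptors and adhesion molecules of fibroblasts tested, 17 were higher in donor cells and 2 in embryos, with a median of -2.75. ITGB1, the beta subunit shared by many integrins, had signals of 115 and 101 in the anti-DJ1 embryos of trials 1 and 2, 118 and 93.9 in the IgG embryos and 86.3 in the non-injected embryos, against 13263 in donor cells, a difference of -6.96 ± 0.32 (adjusted p = 9.19e-07). CDH11, a mesenchymal cadherin, was at 15.3 to 50.4 in embryos and 2417 in donor cells, and CD9, a tetraspanin, at 45.0 to 172 in embryos and 4427 in donor cells. PDGFRB and ITGA2, a collagen-binding integrin subunit, were the members higher in embryos (1.32 ± 0.39 and 3.76 ± 0.76), and a second PDGFRB probe set gave 1.41 and was not called. ITGA2 was at 36.6 to 160 in embryos, above the Tag controls on 4 embryo arrays, and at 2.30 in donor cells, below them.

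Growth factor signalling showed fewer members above the filter. Of 22 TGF-beta, IGF and CCN genes on the array, 14 were tested, 8 were higher in donor cells, 1 was higher in embryos and the median was -3.30. CYR61, a CCN matricellular protein, had 60.6, 48.7, 50.1, 18.7 and 106 on the embryo arrays and 9834 in donor cells (-7.49 ± 0.70, adjusted p = 3.36e-05). The type I receptor TGFBR1 was at 104 to 386 in embryos and 3305 in donor cells (-3.95 ± 0.66) and the shared mediator SMAD4 at 89.3 to 146 in embryos and 2535 in donor cells (-4.47 ± 0.37). The chemokines CCL2 and CXCL2 were higher in donor cells (-4.82 ± 0.83 and -4.23 ± 0.47). INHBA, the activin beta-A subunit, was called higher in embryos (0.77 ± 0.28, adjusted p = 0.0394), and the call was lost without any 1 of IgG replicate 1 (0.0699), IgG replicate 2 (0.0542), anti-DJ1 replicate 2 (0.0643) or the non-injected array (0.0531).

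Of 19 mesenchymal and immediate-early transcription factors on the array, 12 were bright enough to test. Of these, 6 were higher in donor cells and 1 in embryos. Probe sets of EGR1, an immediate-early gene, were called in opposite directions (-1.64 and 4.39). ATF3, a stress-response factor, gave 56.0, 98.1, 64.7, 60.2 and 71.0 on the embryo arrays and 2470.1 in donor cells (-5.08 ± 0.40, adjusted p = 1.47e-05), and FOS, an immediate-early gene induced by serum, was at 158 to 203 in embryos and 2427 in donor cells (-3.78 ± 0.30). HIF1A, the oxygen-sensing factor, was higher in donor cells (-1.60 ± 0.39), a call that was lost with a common 75th percentile (0.0901) and not made on its other probe sets (-2.10 and 0.29), whereas its relative EPAS1 was higher in embryos (714 to 1412 in embryos and 56.2 in donor cells, 3.96 ± 0.41).

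Cytosolic ribosomal proteins, the structural parts of the ribosome, differed in 1 direction. Of 57 tested, 54 were higher in donor cells, 43 of them at least 8-fold, and 0 were higher in embryos, with a median of -4.65. All 60 on the array, the dim ones included, had a negative difference on their brightest probe set, and the median was -4.58 after quantile normalization and -4.12 with a common 75th percentile. RPS26 had signals of 126 and 118 in the anti-DJ1 embryos of trials 1 and 2, 97.4 and 91.5 in the IgG embryos and 69.9 in the non-injected embryos, against 15059 in donor cells, a difference of -7.19 ± 0.37 (adjusted p = 1.65e-06). RPL9 gave 39.3, 31.5, 80.0, 31.0 and 85.3 on the embryo arrays and 13962 in donor cells (-8.03 ± 0.60, adjusted p = 1.06e-05), and RPL37 was at least 86.4-fold higher in donor cells. The least different were chosen after their values were seen: FAU, the ribosomal protein S30 fusion gene (544 to 944 in embryos and 889 in donor cells), RPS28 (7931 to 13032 in embryos and 15464 in donor cells) and RPS24 (648 to 1561 in embryos and 1563 in donor cells) were not called (0.469, 0.126 and 0.278). Another probe set of FAU was called higher in donor cells (-4.52 ± 0.40, adjusted p = 2.65e-05), and a further one gave 1.58 and was not called. RPL5 and RPLP0 kept high embryo signals, 10939 to 14695 in embryos and 28249 in donor cells for the first and 5159.9 to 9388 in embryos and 15539.5 in donor cells for the second. A second, dimmer probe set of RPLP0 was at 10.4 to 65.1 in embryos and 606 in donor cells (-4.51 ± 0.86). The median was -4.82 against the embryos of trial 1 and -4.02 against those of trial 2. Ribosomal protein genes have many processed copies, so a probe set can read more than 1 locus.

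**Figure D4:**
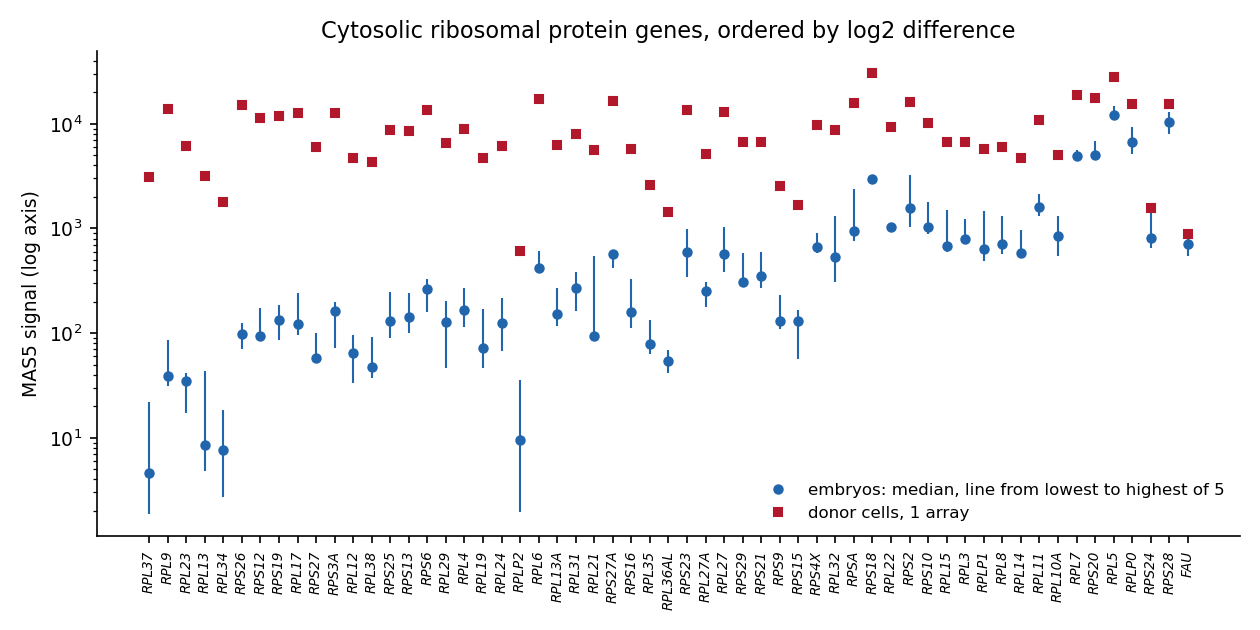
Signals on a log axis of the 57 tested cytosolic ribosomal protein genes, ordered by their log2 difference. Blue dots are the median of the 5 embryo arrays with a line from the lowest to the highest, and red squares are the donor cell array, which lies above all 5 embryo values for 56 of the 57 genes.

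Factors that start and carry out translation stood more often on the donor side. Of 36 tested, 19 were higher in donor cells and 5 in embryos, with a median of -1.41. EEF1G, an elongation factor subunit, had signals of 156 and 170.2 in the anti-DJ1 embryos of trials 1 and 2, 62.4 and 158 in the IgG embryos and 93.1 in the non-injected embryos, against 6844 in donor cells, a difference of -5.78 ± 0.54 (adjusted p = 3.29e-05). EIF4G1, the scaffold of the cap-binding complex, was at 49.4 to 118 in embryos and 1864 in donor cells (-4.43 ± 0.48) and EIF3A, of the initiation factor 3 complex, at 374 to 462 in embryos and 6829 in donor cells (-4.03 ± 0.25). EIF5B, which joins the ribosomal subunits, gave 15395, 9499, 14242, 10667 and 16901 on the embryo arrays and 1238 in donor cells and was higher in embryos (3.39 ± 0.34, adjusted p = 4.99e-05), but its other probe sets gave 0.10 and 0.47. EIF3M (2.53 ± 0.29, with 0.03 on its other probe set), PAIP1 and EIF4E were also higher in embryos. The fifth was EIF1B (1.01 ± 0.38, adjusted p = 0.0437), whose call was lost without anti-DJ1 replicate 1 (0.0624), anti-DJ1 replicate 2 (0.0585) or the non-injected array (0.0581).

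Splicing factors stood near the level of all genes. Of 49 tested, 10 were higher in embryos and 15 in donor cells, with a median of 0.13. The donor side held several serine- and arginine-rich splicing factors: SRSF6 had 62.9, 48.6, 44.3, 55.5 and 69.4 on the embryo arrays and 4024 in donor cells (-6.07 ± 0.39, adjusted p = 4.86e-06), with -4.05 to -7.61 on its other probe sets, and SRSF5, SRSF2, SRSF11 and SRSF7 differed by -3.20 ± 0.36, -2.72 ± 0.29, -2.44 ± 0.26 and -2.31 ± 0.37. LSM7, a small-nuclear-RNA-binding protein, and PRPF3, of the tri-snRNP, were higher in embryos (3.52 ± 0.46 and 3.04 ± 0.48).

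Nuclear genes of the mitochondrial respiratory chain stood mostly on the donor side. Of 55 tested, 35 were higher in donor cells and 3 in embryos, with a median of -1.86. NDUFB3, a complex I subunit, had signals of 95.1 and 86.0 in the anti-DJ1 embryos of trials 1 and 2, 119 and 46.0 in the IgG embryos and 103 in the non-injected embryos, against 5818 in donor cells, a difference of -6.01 ± 0.48 (adjusted p = 1.57e-05). ATP5H, a subunit of the ATP synthase, was at 101 to 173 in embryos and 2332 in donor cells (-4.21 ± 0.37). CYCS, which encodes cytochrome c, was higher in embryos at 4934 to 5625 in embryos and 2655 in donor cells (1.02 ± 0.21). NDUFA1 was called higher in embryos on 1 probe set (1.51 ± 0.22) and gave -5.05 on another. NDUFS3 was called higher in embryos (1.05 ± 0.39, adjusted p = 0.0419), a call lost without anti-DJ1 replicate 1 (0.0603), IgG replicate 1 (0.0722) or the non-injected array (0.0719), and its 2 other probe sets gave 0.06 and -0.23 and were not called.

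Glycolytic genes also stood on the donor side. Of 20 tested, 13 were higher in donor cells and 1 in embryos, with a median of -2.40. GAPDH gave 703, 1724, 675, 1481 and 611 on the embryo arrays and 20408 in donor cells (-4.43 ± 0.57, adjusted p = 0.000205), with -4.10, -3.56 and, not called, -0.08 on its other probe sets, and PGK1, which makes ATP in the payoff phase, 959.9, 1257, 1113, 1050.1 and 818 on the embryo arrays and 10151 in donor cells (-3.30 ± 0.28). HK1, the hexokinase that traps glucose, was at 24.0 to 41.2 in embryos and 1567 in donor cells (-5.40 ± 0.46) and ENO1, enolase, at 67.5 to 207 in embryos and 3625 in donor cells (-4.86 ± 0.59). ALDOC, the brain-type aldolase, was the member higher in embryos (239 to 462 in embryos and 88.5 in donor cells, 1.75 ± 0.40).

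Genes of the proteasome and of ubiquitin transfer stood on both sides. Of 48 tested, 12 were higher in embryos and 19 in donor cells. The list median was -0.11, and it turned to 0.07 after quantile normalization and 0.42 with a common 75th percentile. PSMB8, a catalytic subunit of the immunoproteasome, was at least 23.2-fold higher in donor cells (0.853 to 15.9 in embryos and 834 in donor cells, adjusted p = 0.000276). PSMB10, another immunoproteasome subunit, and the activator PSME1 differed by -4.30 ± 0.91 and -5.68 ± 0.95. The conjugating enzymes UBE2D3 and UBE2D2 had embryo ranges of 13289 to 29826 and 15801 to 38563 and were higher in embryos (2.28 ± 0.43 and 1.68 ± 0.45). So were the 19S regulatory subunits PSMD3, PSMD4 and PSMD11 (2.70 ± 0.58, 2.27 ± 0.55 and 1.69 ± 0.45), whereas the ATPase subunits of the same particle PSMC1, PSMC2, PSMC5 and PSMC6 were higher in donor cells (-1.43 ± 0.34, -0.99 ± 0.23, -3.78 ± 0.97 and -5.56 ± 0.52). The other probe sets of PSMC2 gave -2.35 and, not called, -0.07.

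Lysosomal and antigen presentation genes were lower in embryos. Of 25 tested, 20 were higher in donor cells and 1 in embryos, with a median of -3.67. B2M, the light chain of class I molecules, had signals of 121 and 157 in the anti-DJ1 embryos of trials 1 and 2, 170.1 and 134 in the IgG embryos and 174 in the non-injected embryos, against 15950.5 in donor cells on its brightest probe set, a difference of -6.69 ± 0.31 (adjusted p = 1.04e-06). Its 8 other probe sets ran from -6.31 to 1.47. The class I genes SLA-2 and SLA-8 were higher in donor cells (-5.07 ± 0.68 and -4.62 ± 0.50), as were LAMP2, a lysosomal membrane protein (-5.67 ± 0.41), and the protease CTSC (-5.41 ± 0.52). MX1, an interferon-induced GTPase, was the member higher in embryos (2438 to 3663 in embryos and 751 in donor cells, 2.05 ± 0.28).

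Chaperones of the cytosol and the endoplasmic reticulum stood more often on the donor side. Of 35 tested, 17 were higher in donor cells and 4 in embryos, with a median of -0.86. HSPA5, the reticulum chaperone BiP, had signals of 2070.2 and 2121 in the anti-DJ1 embryos of trials 1 and 2, 2180.0 and 2055 in the IgG embryos and 2011 in the non-injected embryos, against 16863 in donor cells, a difference of -3.01 ± 0.21 (adjusted p = 7.46e-06), and the embryo arrays were close to each other. CRYAB, a small heat shock protein of differentiated cells, was at 14.9 to 62.2 in embryos and 7263 in donor cells (-7.55 ± 0.63), and XBP1, a factor of the unfolded protein response, at 36.1 to 127 in embryos and 3909.9 in donor cells (-5.78 ± 0.58). CCT4, a subunit of the chaperonin that folds actin and tubulin, differed by -5.78 ± 0.45. The embryo side held DNAJA1, an HSP70 co-chaperone (11574 to 13678 in embryos and 3173 in donor cells, 1.99 ± 0.22, with 0.11, not called, on its other probe set), HSPA2, an HSP70 of germ cells (2.63 ± 0.30), HSPA14 (1.73 ± 0.25) and PDIA4 (0.77 ± 0.23, with 1.47 and 0.94, not called, on its other probe sets).

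PARK7, the gene of DJ-1, was measured at 446 and 1203 in the anti-DJ1 embryos of trials 1 and 2, 522 and 1272 in the IgG embryos and 506 in the non-injected embryos, against 4153 in donor cells, a difference of -2.54 ± 0.60 (adjusted p = 0.00534). Embryo values of trial 2 were above those of trial 1, and all 5 lay below the donor value. Over the 32 antioxidant enzymes and DJ-1 partners tested, 19 were higher in donor cells and 4 in embryos, with a median of -1.72. GPX4, which reduces lipid peroxides, was at 72.4 to 189 in embryos and 5166 in donor cells (-5.32 ± 0.47), SOD2, the mitochondrial superoxide dismutase, at 179 to 379 in embryos and 6387 in donor cells (-4.63 ± 0.39), and PRDX4, the peroxiredoxin of the endoplasmic reticulum, at 446 to 657 in embryos and 10542 in donor cells (-4.26 ± 0.27). GSTM3, a glutathione transferase, gave 1597, 3563, 1449, 3465 and 1266 on the embryo arrays and 21.1 in donor cells and was at least 59.8-fold higher in embryos (adjusted p = 3.33e-05). GSR, glutathione reductase, and PRDX2, a cytosolic peroxiredoxin, were also higher in embryos (1.51 ± 0.30 and 1.01 ± 0.27), the latter not after quantile normalization (0.0570). A second probe set of GSR gave 0.70 and was not called. GCLC, of glutathione synthesis, was the fourth (1.16 ± 0.42, adjusted p = 0.0381), a call lost without anti-DJ1 replicate 1 (0.0672), IgG replicate 1 (0.0677) or the non-injected array (0.0522).

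Lipid genes had 7 of 20 tested on each side. HMGCS1, of the sterol pathway, was at 42.4 to 55.1 in embryos and 3375 in donor cells (-5.98 ± 0.37, adjusted p = 4.15e-06), SCD, the desaturase, at 714 to 784 in embryos and 5553 in donor cells (-2.89 ± 0.22) and FABP3, a fatty acid carrier, at 2116 to 3350.1 in embryos and 14417 in donor cells (-2.52 ± 0.28). ACSL3, which activates fatty acids at lipid droplets, gave 11669.7, 8561, 12017, 10014 and 13152 on the embryo arrays and 1159 in donor cells and was higher in embryos (3.24 ± 0.28, adjusted p = 2.19e-05), as was ABCA1, a cholesterol exporter (at least 8.04-fold).

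Genes that are candidates for early transcription of the embryonic genome were not, as a list, higher in embryos. Of 15 tested, 8 were higher in donor cells and 3 in embryos, with a median of -1.22. POLR2B, the second largest subunit of RNA polymerase II, had signals of 291 and 220.1 in the anti-DJ1 embryos of trials 1 and 2, 195 and 194 in the IgG embryos and 258 in the non-injected embryos, against 20487 in donor cells, a difference of -6.46 ± 0.31 (adjusted p = 1.16e-06), with -8.57, -4.94 and -2.16 on its other probe sets. NOP58 and FBL, of the nucleolar box C/D particles, differed by -4.03 ± 0.49 and -3.17 ± 0.82. PAF1, an elongation factor, and GTF2B, a general initiation factor, were higher in embryos (2.81 ± 0.31 and 1.41 ± 0.22), as was DKC1, of the box H/ACA particles (0.90 ± 0.26). The second probe sets of PAF1 (-0.39) and DKC1 (0.44) were not called.

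Markers of other cells were read on both sides. Of 9 cumulus and granulosa markers on the array, which would mark follicle cells left on an oocyte, FSHR, PTX3, TNFAIP6, AMH, STAR and CYP11A1 were above the Tag controls on no embryo array, whereas INHBA (975 to 1495) and INHA (40.3 to 226) were above them on all 5. CYP19A1 was at 17.4 to 48.0 in embryos, above the Tag controls on 2 embryo arrays, and at 13.1 in donor cells, below them. The summed signal of the 9, most of it from INHBA, was 1171 to 1702 in embryos and 888 in donor cells. In a longer list, 13 of 23 such markers on the array were too dim to test. Among those outside the 9, LHCGR was above the Tag controls on 4 embryo arrays and FOXL2 and NR5A2 on 3 each. AREG, PTGS2 and VNN1 were above them on none. In the epithelial list, CDH1 (E-cadherin) was higher in embryos (3057 to 3694 in embryos and 749 in donor cells, 2.17 ± 0.22), and EPCAM was at 3734 to 5574 in embryos and 3128 in donor cells with no call (adjusted p = 0.0679). Of the endothelial markers, PECAM1 was at 136 to 320.0 in embryos and 67.8 in donor cells, and a second, dimmer probe set was not called. VWF was at 10.7 to 69.9 in embryos and 51.3 in donor cells, and CDH5 was above the Tag controls on no array. HBB, a haemoglobin chain, was at 982 to 2045 in embryos and 922 in donor cells. MYOD1, of muscle, and CD14, of blood, were each above the Tag controls on 1 embryo array and not in donor cells. DES is given above. In the longer list, 10 of 22 epithelial, endothelial, muscle and blood markers on the array were too dim to test. The part of such cells in the results was not tested. PTPRC, of white blood cells, was at 13.7 to 57.5 in embryos and 32.9 in donor cells.

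Further genes were taken by the size of the fitted difference from those that passed; where the dim side lay within the Tag controls, that size is no measured fold and sets no order. Toward embryos they included KCNN3, a calcium-activated potassium channel (7998, 5093, 11214, 5869 and 12284 on the embryo arrays and 3.48 in donor cells, at least 233-fold higher), FKBP6, an immunophilin of germ cells (at least 304-fold), and TMPRSS15, the protease enteropeptidase (at least 184-fold). TACC3, a spindle protein, was at least 144-fold higher, ABCB1, a drug efflux pump, at least 51.3-fold, and IL12B, a cytokine subunit, at least 55.4-fold. MRAP2, a melanocortin receptor accessory protein, was at least 58.9-fold higher and HMMR, a hyaluronan receptor that also acts at the spindle, at least 34.5-fold. HAS3, a hyaluronan synthase, was at 9173 to 12813 in embryos and 40.2 in donor cells (7.89 ± 0.26). CYP3A46, TCP11, GPR160, ZNF648 and LOC100621559 completed the group, with fitted differences of 7.78 to 8.31.

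Toward donor cells, ANKRD1, a muscle and stress-response ankyrin protein, had signals of 13.4 and 16.2 in the anti-DJ1 embryos of trials 1 and 2, 19.04 and 20.9 in the IgG embryos and 25.9 in the non-injected embryos, against 11728 in donor cells, at least 326-fold higher (adjusted p = 1.92e-06). CEBPD, a CCAAT-binding transcription factor, gave 14.7, 28.2, 15.7, 18.2 and 9.14 on the embryo arrays and 7797 in donor cells (at least 217-fold higher), and TMED2, a cargo receptor of the early secretory pathway, 71.7, 35.5, 71.2, 12.1 and 71.2 on the embryo arrays and 18511 in donor cells (-8.55 ± 0.80). PDPN, the membrane glycoprotein podoplanin, was at 39.9 to 132 in embryos and 22572 in donor cells, RGS4, a regulator of G-protein signalling, at 28.3 to 70.2 in embryos and 12867 in donor cells and SLC1A1, a glutamate transporter, at 56.7 to 107 in embryos and 15157 in donor cells. KRT19 was at least 99.9-fold higher and TM4SF1, a surface protein, at least 99.2-fold. VCAM1, an adhesion molecule, was at 15.0 to 135 in embryos and 14364 in donor cells, MSN (moesin), which ties actin to the membrane, at 9.71 to 45.1 in embryos and 6213 in donor cells and PPP3CA, a calcineurin subunit, at 7.28 to 38.9 in embryos and 3925 in donor cells. SMARCA1, a chromatin remodeller, PALMD and SAMD4A differed by -7.79 ± 1.05, -7.82 ± 0.87 and -8.25 ± 0.66. PALMD was above the Tag controls on only 1 embryo array (2.62 to 37.3 in embryos and 4695 in donor cells). VPS26A, of the retromer, differed by -7.59 ± 0.68 on 1 probe set and by -0.15 on another.

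For some bright genes no difference was detected. Among the 500 brightest named genes, STT3B, a subunit of the oligosaccharyltransferase, had 5063, 5283, 5022, 4008 and 4852 on the embryo arrays and 4818 in donor cells, and the 95% interval of its log2 difference was -0.54 to 0.54. TACC1 was at 4381 to 9109 in embryos and 6296 in donor cells and ARL2BP at 7509 to 11241 in embryos and 9739 in donor cells, with intervals of -0.93 to 0.92 and -0.68 to 0.67. CTNNB1, which encodes beta-catenin, was at 11219.9 to 14504 in embryos and 12868 in donor cells with an interval of -0.55 to 0.56, but its other probe sets gave -1.67, -5.49, -1.82 and -0.77. MRLC2, a myosin regulatory light chain, was at 4331 to 7968 in embryos and 5739 in donor cells, but another of its probe sets was called higher in donor cells (-2.10 ± 0.44, adjusted p = 0.00303). Against trial 2 embryos alone, a setting chosen after seeing the data, TACC1 and MRLC2 passed (-0.49 and 0.39, adjusted p = 0.0112 and 0.0362). The median 95% interval over all tested probe sets reached 1.98-fold either way, and intervals of bright genes could be narrower.

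For some list members the embryo arrays lay nearly as far from each other as from the donor array. Among called members, the 10 with the widest embryo range beside the difference were SF3B5, FDPS, NDUFB11, EIF6, TRA2B, HNRNPH1, PSMB6, EIF1B, NDUFS3 and CDKN2C. Members that were not called, such as INHA and AURKB, can have a wider range beside their difference. SF3B5, of the splicing factor 3b complex, gave 59.7, 101, 14.0, 109 and 48.9 on the embryo arrays and 348 in donor cells (-2.56 ± 0.89, adjusted p = 0.0322). FDPS, of the sterol pathway, had 55.8, 191, 44.0, 180.0 and 56.1 on the embryo arrays and 397 in donor cells, with both trial 2 values above those of trial 1 (-2.13 ± 0.81, adjusted p = 0.0455). TRA2B, a splicing regulator, showed the reverse, with 5407, 2831, 6174, 2355 and 5039 on the embryo arrays and 10873 in donor cells (-1.42 ± 0.51, adjusted p = 0.0370). Without 1 embryo array, 9 of the 10 lost their call. SF3B5 lost it without the non-injected array (-2.52, adjusted p = 0.0565), and FDPS (0.0630 to 0.0767), EIF6 (0.0528 to 0.0575) and PSMB6 (0.0643 to 0.0838) each without any 1 of the trial 1 embryo arrays. NDUFB11 lost it without anti-DJ1 replicate 1 (0.0608) or IgG replicate 1 (0.0583), and HNRNPH1 without anti-DJ1 replicate 2 (0.0509), IgG replicate 1 (0.0745) or the non-injected array (0.0721). TRA2B kept it without any 1 array but not with a common 75th percentile (0.237), and 1 of its 3 other probe sets gave 0.27 and was not called.

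How far a difference depended on the place of the probes was read from control transcripts probed at 3 positions. For EF1A the log2 difference between embryos and donor cells was -1.32 at the 3' end, -2.50 in the middle and -3.30 at the 5' end. For actin it was -0.59, -1.89 and -0.80, and for GAPDH -4.31, -5.27 and -3.21. The slope along EF1A was steeper in trial 1 (-1.58 to -4.18) than in trial 2 (-0.92 to -1.96). The ratio of the 3' to the 5' signal for EF1A was 23.9 to 30.0 on embryo arrays of trial 1, 8.20 and 9.34 on those of trial 2 and 4.23 in donor cells. The part of this in the differences above was not tested. Each of the 9213 probe sets called kept its sign against the embryos of either trial alone. Since the calls came from these same arrays and both trials share the donor array, that cannot speak to probe position.

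**Figure D5:**
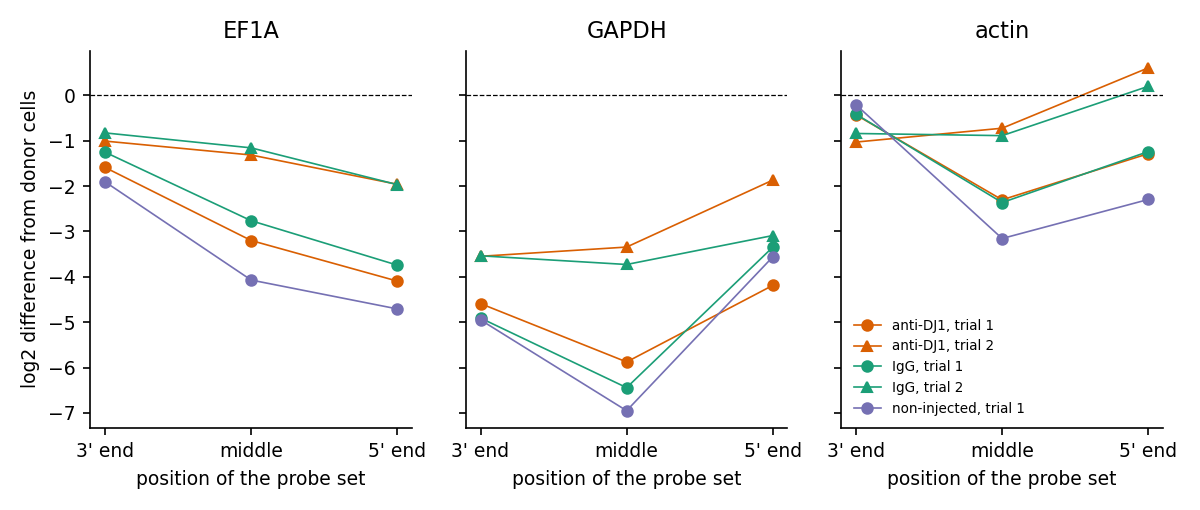
Log2 difference of each embryo array from the donor cell array for 3 control transcripts probed at the 3' end, the middle and the 5' end, with circles for trial 1 and triangles for trial 2. EF1A falls from the 3' to the 5' end on all 5 arrays, and the trial 1 arrays lie lower than the trial 2 arrays in the middle of each transcript.

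Probe sets of 1 gene did not always tell the same story. Of 1188 genes with more than 1 tested probe set, 405 (34.1%) had all of them called in the same direction, and 87 (7.32%) had probe sets called in opposite directions. The median gap between the highest and the lowest log2 difference of a gene was 1.37, and it was over 3 for 217 genes. The widest opposite calls, named after their values were seen, were B2M (-6.69 and 1.47), MBD2 (-3.72 and 4.34) and EIF4EBP2, a brake on cap-dependent translation (-4.57 and 2.91). RAN, the GTPase of nuclear transport, ran from -5.56 to 1.49 over 8 probe sets.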

How the data were processed

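RNA from 5 pools of transfer embryos and 1 culture of donor cells was hybridised to Affymetrix Porcine Genome Arrays after 2 rounds of labelling, per the labels' protocols. The deposited values are linear probe set intensities made with MAS5, per the submitters' processing notes; the sources used here give no version or scaling target. Of 24123 probe sets, 124 are controls. The platform annotation gives 1 gene symbol to 10069 of the others, several to 198 and none to 13732, and can be old.

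Signals were taken as log2(signal + 4.60), the pseudocount being the 10th percentile of all signals, so differences of dim genes are understated. Probe sets in the upper 60% by mean signal (at least 54.4) were tested with limma 3.58.1 in R 4.3.3 (lmFit, then eBayes with its trend option, 4 residual and 4.42 prior degrees of freedom, Benjamini-Hochberg adjustment over 14399 probe sets, called at 0.05), embryos minus donor cells. The filter averages 5 embryo arrays and 1 donor array, so a gene seen only in donor cells needs a higher signal to pass. Script behaviour was tested on simulated data. The series' design text calls the trial 2 pools biologically different samples, so embryo arrays were taken as replicates. Control probe sets also differed by trial. The poly-A control dap was at 3865 and 4496 on trial 2 arrays and 1.20 to 12.0 on trial 1 arrays, the donor array included. The control BioC was at 1093 and 1168 on trial 2 arrays and 2612 to 6155 on trial 1 arrays. The part of this in differences between trials was not tested. Where the dim side of a gene lay within the Tag controls, a lower bound of the mean fold was computed: the mean of the bright side over the mean of the dim side (log2 scale), with each dim array set to its highest Tag control signal. The bound leaves out the pseudocount and the spread of the arrays, so it can exceed the fitted fold and is no confidence limit. Where only some embryo arrays lay within the Tag controls, no bound was computed and the fitted difference is given.

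The 288 genes followed a rule: the markers and PARK7, up to 20 largest called differences each way, up to 6 largest per list plus called members opposite to the list's median, family pairs, 10 members with a wide embryo range (limited to called ones, which the rule as written did not say), and 5 least different bright genes. The members and lists were chosen with earlier results of these data known. Embryo arrays of 1 trial deviated together (r = 0.559 across probe sets), and the labels give the trial, so it was used as a replicate block in an alternative. The donor cells were in trial 1 only, so the block takes each difference from trial 1 embryos and uses trial 2 only for the spread. Other alternatives were 2 scalings, 2 pseudocounts, 2 filters, no trend, 1 trial alone, separate embryo group means and leaving out each embryo array; the donor array cannot be left out.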

Additional observations from a re-analysis of the deposited data

Results flagged for a closer look

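Among the 288 genes singled out by the rule, 9 had 1 embryo array set apart from the other 4 by Dixon's criterion, which chance meets in about 1 group in 20. The non-injected array was lowest for COL5A1 (10.3 against 51.8 to 60.3), EEF1B2, an elongation factor subunit (590.1 against 841 to 957), VCAM1 (15.0 against 87.0 to 135) and ZCCHC11 (4.08 against 31.4 to 48.9). The anti-DJ1 array of trial 1 was lowest for EIF2S1, an initiation factor subunit (462 against 714 to 788), and HAT1, a histone acetyltransferase (276 against 411 to 478), and highest for UBE2E3, a ubiquitin-conjugating enzyme (10099 against 8903 to 9138). The anti-DJ1 array of trial 2 was lowest for NAP1L1 (452 against 557 to 599.7), and the IgG array of trial 2 for FKBP6 (6027 against 11607 to 12888). In each of the 9 genes the donor value lay outside the range of the 5 embryo arrays. The rule itself favours this, since 279 of the 288 genes were called.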

How the results depend on the processing

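The total of 9213 calls was 9138 to 10436 under quantile normalization (9456), a common 75th percentile (9346), the larger pseudocount (9255), no pseudocount (9138), no filter on low values (10215), trial 1 only (10147) and the trial as a replicate block (10436), 9001 without a mean-variance trend and 8341 with a mean per embryo group. It was 8954 to 9248 when 1 embryo array was left out (4242 to 4389 toward embryos, 4712 to 4950 toward donor cells). With the upper 40% of probe sets there were 6912 calls, 3753 toward embryos and 3159 toward donor cells, with fewer probe sets tested. The embryo share of calls was 57.0% and 60.1% under the 2 scalings and 43.5% with no filter. No probe set called as reported was called the other way under any alternative. Of 279 genes called among the 288, 246 kept their call and direction under every alternative that tested them, and 220 of these were tested in all 16. A common 75th percentile removed 22 calls and added 2. The block, whose differences are those against trial 1 embryos, added the calls of AURKB and NPM1 and changed no other call among the 288. Leaving out 1 embryo array removed the call of 16 genes, among them HAT1 (without anti-DJ1 replicate 1, IgG replicate 1 or the non-injected array) and SERPINE2 (without anti-DJ1 replicate 1, 0.0519, or IgG replicate 2, 0.0554). Against trial 2 embryos alone, an alternative chosen after seeing the data, 11417 probe sets were called. The promoter description that had been planned could not be made, since no sequence was used here. A single donor array limits all of this: its own spread was not measured.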

Other observations

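Gene families outside the lists were chosen after the data were seen. Over all named genes, 29.4% were called higher in embryos and 35.6% in donor cells. Several families did not lean clearly to 1 side: of 93 solute carriers, 23 were higher in embryos and 32 in donor cells. Of 28 RAB GTPases, 6 were higher in embryos and 6 in donor cells. The families named next include those with the larger medians. Of 8 nucleoporins, which build the nuclear pore, 7 were higher in embryos and 0 in donor cells, with a median log2 difference of 2.07, and NUP50 was not called. Of 8 kinesins, motors of microtubules, 5 were higher in embryos and KIFAP3, a kinesin-associated protein, in donor cells (median 1.97). Of 10 ABC transporters, which pump substrates across membranes, 5 were higher in embryos, and ABCG2 and ABCB6 in donor cells (median 1.35). The 13 karyopherins, which carry cargo through the pore, split into 5 and 5: KPNA3 differed by 5.25 ± 0.31, KPNB1 by -3.64 ± 0.44 and IPO5 by -6.04 ± 0.39.

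Of 16 aminoacyl tRNA synthetases, which charge tRNAs, 10 were higher in donor cells, and IARS2 and DARS in embryos (median -1.68). The 55 mitochondrial ribosomal proteins stood near the shares over all named genes, with 13 higher in embryos and 18 in donor cells. Their median of -0.37 turned to 0.16 with a common 75th percentile. Of 5 keratins, 4 were higher in donor cells (median -6.39). Among the genes set out by array, KPNA7, WEE2, CCNB1, PCNA and PTTG1 were higher on each trial 1 embryo array than on either trial 2 array, and PADI6, ZP2, BMP15, PLK1 and CDC20 were lower. What part the processing of each trial has in this was not tested.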
